A study of Mus musculus with 144 samples.

Results

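The cytosolic ribosomal protein genes were taken from the deposited gene table by their symbols. A row was a member when its symbol was Rpl or Rps followed by a number, with at most 1 of the letters a, x, l or y and 1 further digit, or was Rplp0, Rplp1, Rplp2 or Rpsa. The rows Rps3a2 and Rps3a3 were left out. This gave 86 of 51912 gene rows, with 34 genes of the small and 52 of the large ribosomal subunit. RNA was measured in mouse liver by QuantSeq 3′ mRNA sequencing, which reads the end of each transcript beside its poly(A) tail, in 144 libraries. The libraries form 4 series of 36, each sampled at 6 zeitgeber times with 6 libraries per time: ZT2, 6, 10, 14, 18 and 22, where ZT0 is lights on. Total RNA, nuclear RNA and polysomal RNA of wild-type male C57BL/6J mice make up 3 series, and the fourth is total RNA of male Bmal1-/- mice labelled with the same strain. Light and dark lasted 12 h each per day, and food and water were freely available. Nuclei came from frozen tissue washed in hypotonic buffer and spun through sucrose, and polysomal RNA came from sucrose gradient fractions of frozen tissue crushed in a buffer with cycloheximide. The sources used here give no age, no account of how the Bmal1-/- line was made, and no word on whether libraries with the same number came from 1 animal, so p-values measure the spread between libraries.

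Each ribosome is built from a small subunit, which reads the mRNA, and a large subunit, which joins amino acids, and each cytosolic ribosomal protein is normally made in step with the others. Their mRNAs begin with a C followed by a run of C and T bases, the terminal oligopyrimidine (TOP) motif, through which mTORC1 and the RNA-binding protein LARP1 set how much of each mRNA is engaged by ribosomes. In mouse liver the recruitment of TOP mRNAs to polysomes is known to follow the daily cycle of feeding and the clock, of which BMAL1 is a core transcription activator.

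Depth, as summed gene counts, lay between 5316601 and 9831142 for wild-type total, 1662449 and 6620128 for nuclear, 2578048 and 13068044 for polysomal and 4379549 and 14281894 for Bmal1-/- libraries. Of the 86 genes, 82 reached a mean of 10 counts per library and were tested in every comparison, 33 of the small and 49 of the large subunit. Rpl10l, Rpl39l, Rpl3l and Rps12l1, all copies of other members, did not reach it and had at most 6 counts in any library. The nuclear transcripts Malat1, Neat1, Meg3, Kcnq1ot1 and Xist together had a median of 60.6 CPM (counts per 1000000 gene counts) in polysomal, 2013 CPM in total and 2840 CPM in nuclear RNA of the wild type. All 10 hepatocyte markers were counted in every series, with summed medians from 53280 CPM in polysomal to 94550 CPM in wild-type total RNA. Arntl, which encodes BMAL1, was counted in the Bmal1-/- libraries, with a median of 10.9 CPM, against 6.46 CPM in wild-type total RNA; whether the counted 3′ end lies in the deleted part is not given in the sources used here, so this does not check the genotype. In each series 1 library, at ZT22, had Xist above 100 CPM although all mice are labelled male. In wild-type total RNA, replicate 4 at ZT2 stood apart in gene levels and in the use of polyadenylation sites. It was the lowest of the 36 libraries in 39 of the 82 tested genes and the highest in 11, and no other library of its series was the lowest in more than 14. Without it, the members with all nuclear libraries below the total RNA range number 26 in place of 18. Those with all polysomal libraries below it number 19 in place of 10. Such counts were made for the 82 genes only, so they have no background over all genes. Replicate 1 of the polysomal series stood apart at all 6 times, as described next.

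Together the 86 genes held 1.58% ± 0.178 (SD, n = 36) of all gene counts in wild-type total RNA, with single libraries between 1.31% and 2.00%. In nuclear RNA the share was 0.997% ± 0.167 (SD, n = 36), and its highest library, at 1.31%, was below the lowest of wild-type total RNA before rounding. In polysomal RNA it was 0.777% ± 0.257 (SD, n = 36), and 34 of 36 libraries were below the wild-type total range. Replicate 1 gave 1.13% ± 0.251 (SD, n = 6) in the polysomal series, and the other 30 libraries 0.707% ± 0.195 (SD). In Bmal1-/- total RNA the share was 2.10% ± 0.373 (SD, n = 36), and 21 of 36 libraries were above the highest of wild-type total RNA. The shares were also higher in replicates 4 to 6 than in replicates 1 to 3 of both total RNA series, at 1.71% ± 0.155 against 1.45% ± 0.0766 (SD, n = 18) in the wild type and 2.32% ± 0.375 against 1.89% ± 0.219 (SD, n = 18) in Bmal1-/-. Within each of these sets the Bmal1-/- share was thus the higher one.

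The subunits did not hold the same part of this total in each series. The log2 ratio of summed small to summed large subunit counts was -0.31 ± 0.07 (SD, n = 36) for wild-type and -0.30 ± 0.06 for Bmal1-/- total RNA, where 34 of 36 libraries lay within or below the wild-type range. Between replicates 1 to 3 and replicates 4 to 6 the genotypes went opposite ways, from -0.26 to -0.36 for the wild type and from -0.33 to -0.28 for Bmal1-/-. It was -0.12 ± 0.10 in nuclear RNA, where 23 of 36 libraries lay above the wild-type total range. It was 0.19 ± 0.18 in polysomal RNA, where 33 of 36 libraries lay above that range. The polysomal replicate 1 libraries were the low ones, between -0.19 and -0.03, and the other 30 polysomal libraries ran from 0.04 to 0.44. With pseudogene rows, described below, added, wild-type total libraries ran from -0.31 to -0.009 and nuclear ones from -0.29 to 0.04. Most nuclear libraries then lay within the wild-type total range, while the polysomal ones without replicate 1 ran from 0.009 to 0.46. These ratios are a description, with no test, since genes are not replicates. The plot of each library by time shows both measures.

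**Figure D1:**
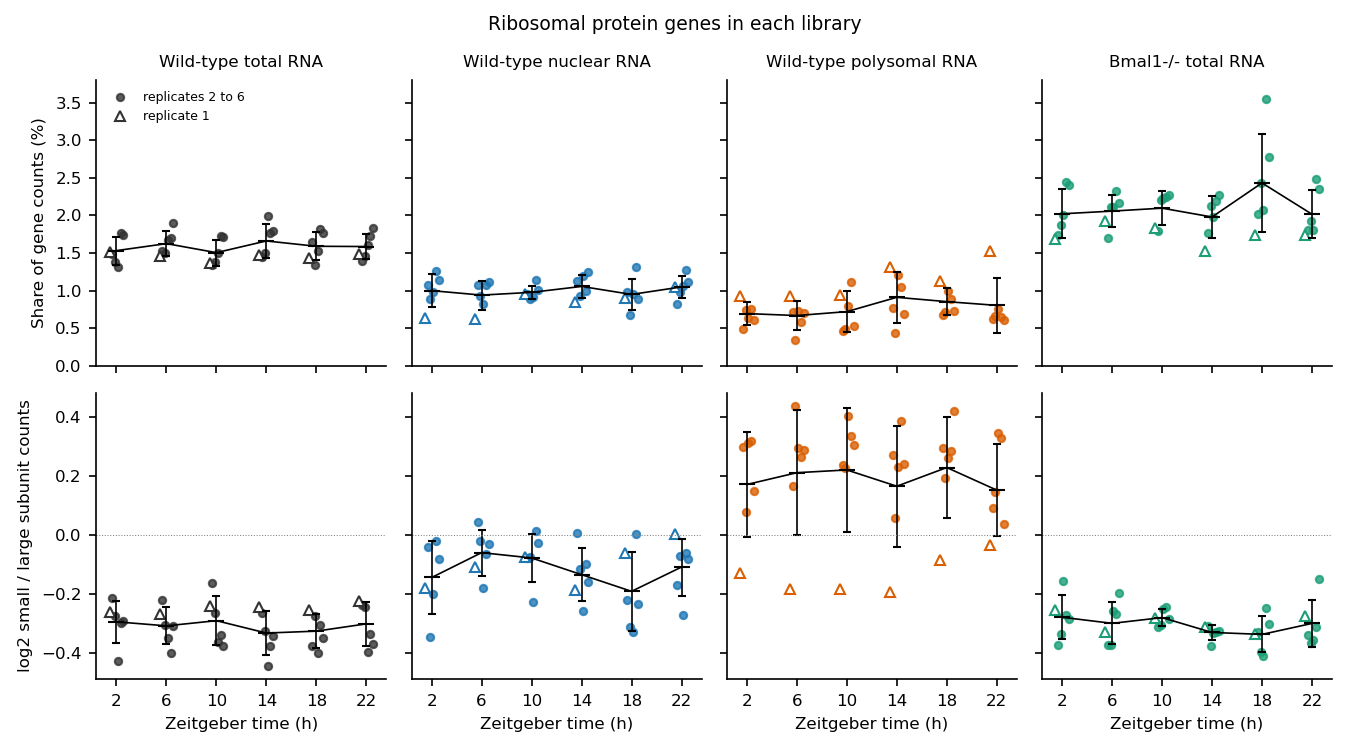
Share of gene counts in the 86 ribosomal protein genes (top, percent) and log2 ratio of small to large subunit counts (bottom) in each library by zeitgeber time in hours. Points are libraries, open triangles are replicate 1, and lines with bars are the mean ± SD of 6 libraries. Nuclear and polysomal shares lie below most of the wild-type total RNA libraries, Bmal1-/- shares lie mostly above them, and the polysomal replicate 1 libraries have the lowest ratios of their series.

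Polysomal RNA was set against wild-type total RNA to ask how the mRNA on ribosomes differs from the whole pool. Of the 82 tested genes, 74 (90.2%) were lower in polysomal RNA and 2 (2.44%) were higher, where 37.6% of all 11556 tested genes were lower and 38.4% were higher. The median log2 change of the 82 genes was -1.40, against 0.01 over all tested genes. Of the 74 lower genes, 73 had the lower mean at each of the 6 times. Values are relative to each library's total after normalization, so they say nothing on absolute amounts. Markers of red blood cells moved with this comparison, with 4 of 5 tested higher. The summed level of the 7 listed ran from 546 to 13130 CPM in total and from 2157 to 20820 CPM in polysomal RNA. Of 9 stellate cell markers tested 7 were lower and 0 higher, and of 10 sinusoidal endothelial markers 7 were lower and 1 higher. The part of these cell types in the result was not tested.

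Rps19, a small subunit protein whose gene is mutated in Diamond-Blackfan anaemia, had the lowest change. Its level had a low of 86, a median of 137 and a high of 190.0 CPM over the 36 wild-type total libraries, and 2.25, 11.2 and 45.5 CPM over the 36 polysomal ones. No polysomal library reached the lowest total RNA library. The log2 change was -3.56 (SE 0.16, adjusted p 6.51e-30, edgeR's quasi-likelihood test). Rpl28, a large subunit protein, ran from 1.32 to 118 CPM with a median of 79.5 CPM in total RNA, and from 0 to 32.8 CPM with a median of 5.73 CPM in polysomal RNA. The ranges overlapped only through replicate 4 at ZT2 of total RNA, at 1.32 CPM, without which the lowest was 52.2 CPM and above all 36 polysomal libraries. The change was -3.50 (SE 0.23). Rpl17 followed with -3.48 (SE 0.20), from a median of 49 CPM to one of 5.03 CPM with no overlap. Rpl36, Rpl35 and Rpl26 changed by -3.07, -3.06 and -2.99. Over 1 log2 unit below the members' median were also Rpl24, Rps12, Rpl21, Rps7, Rps3a1, Rps18, Rpl29, Rpl41 and Rpl5, between -2.81 and -2.44. Rpl3, Rpl14 and Rpl22 stood at the median, with changes of -1.40, -1.40 and -1.38.

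At the other end were 2 paralogs, gene copies that encode a variant of a ribosomal protein. Rpl7l1, the paralog of Rpl7 that acts in assembly of the large subunit, ran from 26.1 to 52.8 CPM with a median of 39.7 CPM in total RNA and from 60.9 to 148 CPM with a median of 107 CPM in polysomal RNA. Each of the 36 polysomal libraries was above all total RNA libraries, and the log2 change was 1.29 (SE 0.06, adjusted p 6.37e-29, edgeR). Rpl7 itself went the other way, from a median of 358 to one of 68.7 CPM (-2.11, SE 0.14). Rps27l, the paralog of Rps27 and a known target of p53, had medians of 187 CPM in total and 351 CPM in polysomal RNA, and 30 of 36 polysomal libraries were above the total RNA range. Its change was 0.81 (SE 0.08, adjusted p 1.10e-14, edgeR), against -1.90 (SE 0.19) for Rps27. Rpl22l1 fell by 0.59 (SE 0.10) and its parent Rpl22 by 1.38 (SE 0.07). Rps4l, which RefSeq lists as a transcribed pseudogene, was at -0.04 (SE 0.13, adjusted p 0.78), and its parent Rps4x at -2.11 (SE 0.16). Rpl6l, listed there as a pseudogene, lay below Rpl6, at -1.99 (SE 0.12) against -0.93 (SE 0.11). The differences between a paralog and its parent were not tested.

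Besides Rps4l, the genes that did not pass were Rps2 (-0.24), Rpl19 (-0.18), Rpl18 (-0.10), Rpl15 (0.08) and Rps9 (0.12), with adjusted p between 0.06 and 0.54 in edgeR; without replicate 4 at ZT2 of total RNA, Rps9 passed as higher (0.15, adjusted p 0.028). Rps15a, Rps13 and Rps3 passed with small changes of -0.40, -0.28 and -0.21. The stalk proteins of the large subunit, which recruit the elongation factors, differed in size. Rplp0 changed by -1.62 (SE 0.13), Rplp1 by -0.82 (SE 0.08) and Rplp2 by -0.71 (SE 0.09). Rpsa, a small subunit protein also known as the laminin receptor, changed by -0.96 (SE 0.12). Over the subunits, 29 of 33 small and 45 of 49 large subunit genes were lower, with medians of -0.98 and -1.62. The difference of medians has no test.

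**Figure D2:**
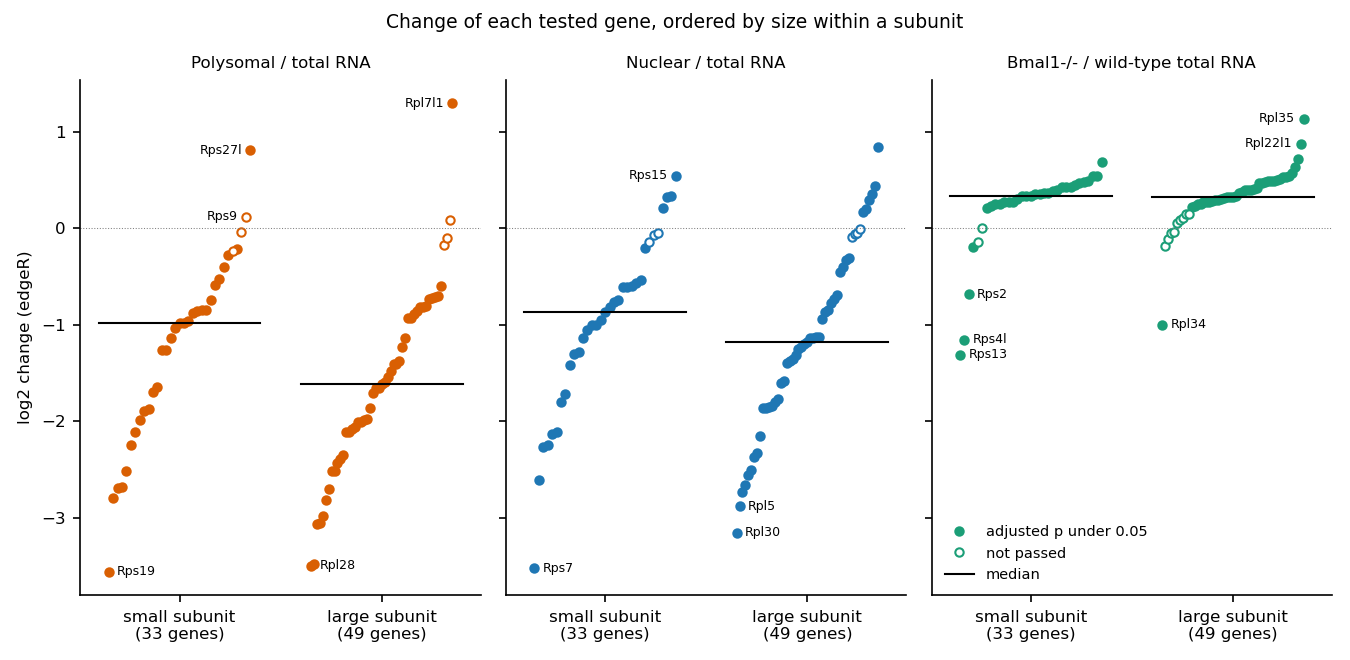
log2 change of each tested gene (vertical axis) in polysomal against total, nuclear against total and Bmal1-/- against wild-type total RNA, with genes ordered by size within the small and the large subunit (horizontal axis). Filled points passed an adjusted p of 0.05 and black lines are medians, at -0.98 and -1.62 in polysomal, -0.87 and -1.18 in nuclear and 0.34 and 0.32 in Bmal1-/- RNA.

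Other mRNAs were read from lists of genes chosen with earlier results of these data known. Of 24 other TOP mRNAs, which code for elongation and initiation factors and related proteins, 22 were lower and 1 was higher in polysomal RNA, with a median of -0.68. The elongation factor genes Eef1a1, Eef2 and Eef1b2 changed by -0.39, -0.70 and -1.38, and Pabpc1, which encodes the poly(A)-binding protein, by -0.44. Of 77 tested mitochondrial ribosomal protein genes, whose mRNAs are not of the TOP class, 25 were lower and 35 were higher, with a median of 0.14. Of the ribosomal proteins whose symbols lie outside the rule, Rack1 was at 0.00 (adjusted p 0.97), while Rpl36al and Fau changed by -1.23 and -0.61 (edgeR).

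The lower polysomal levels were seen at each time. At ZT2, 6, 10, 14, 18 and 22 the number of lower genes was 72, 72, 65, 53, 55 and 65 of 82, and the median log2 change was -1.58, -1.76, -1.41, -1.15, -1.24 and -1.37. At single times 20.1% to 24.8% of all genes were lower. The median over all times was -1.17 in replicates 1 to 3, -1.79 in replicates 4 to 6 and -1.66 without the polysomal replicate 1.

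To show what the starts of these mRNAs look like, stretches of 30 bases, 15 on each side of an annotated transcript start, were read from RefSeq (GRCm38.p6), with the run of C and T near the start in capitals. The first 3 genes were among the lower ones in polysomal RNA and have such a run. The next 3 have a run and did not pass in that comparison by their own rows. Rpl15 was lower once pseudogene rows, described below, were added. The last 3 have none by the rule used, and of these Rpl26 and Rps7 were lower and Rpl7l1 was higher.
Rpl28: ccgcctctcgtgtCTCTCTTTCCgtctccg
Rpl35: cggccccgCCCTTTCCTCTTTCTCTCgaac
Rps18: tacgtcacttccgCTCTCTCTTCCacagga
Rpl18: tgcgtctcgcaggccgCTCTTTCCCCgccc
Rpl15: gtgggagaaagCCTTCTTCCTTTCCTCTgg
Rps9: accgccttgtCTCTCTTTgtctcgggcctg
Rpl26: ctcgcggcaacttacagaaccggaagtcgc
Rps7: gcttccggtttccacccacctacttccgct
Rpl7l1: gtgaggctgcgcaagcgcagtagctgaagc
The stretches lie, in this order, at chr7:4792950-4792979 on the plus strand, chr2:39005117-39005146 on the minus strand, chr17:33955651-33955680 on the minus strand, chr7:45718056-45718085 on the plus strand, chr14:18270972-18271001 on the minus strand, chr7:3704026-3704055 on the plus strand, chr11:68901551-68901580 on the plus strand, chr12:28635939-28635968 on the minus strand and chr17:46782642-46782671 on the minus strand.

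RefSeq starts were found for 63 of the 86 genes. A run of at least 7 C or T bases that begins with C within 10 bases of an annotated start, on the gene's strand, was present in 26 of 63 (41.3%), against 12.3% of 27025 genes. The letters CTTTCC occurred on the gene's strand in the 300 bases around the start in 25 of 63 (39.7%), against 16% of all genes, and on either strand in 33 (52.4%), against 29.3%. Of 25 tested genes with the run, 22 were lower in polysomal RNA with a median of -1.27, and of 35 without it 31 were lower with a median of -1.38. An annotated start need not be the one used in liver, so a missing run says only that these letters are not there.

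Nuclear RNA was compared with total RNA in the same way. Of the 82 genes, 65 (79.3%) were lower and 10 (12.2%) were higher, against 42.1% and 41.6% of all 11864 tested genes, and the median log2 change was -1.09, against -0.01 over all genes. Rps7 had the lowest change, with 149, 187 and 243 CPM as lowest, median and highest library in total RNA and 5.96, 16.1 and 29.6 CPM in nuclear RNA. The groups did not overlap, and the change was -3.52 (SE 0.11, adjusted p 4.48e-42, edgeR). Rpl30 changed by -3.16 (SE 0.09), Rpl5, which binds the 5S RNA, by -2.88 (SE 0.09), and Rpl4, Rpl17 and Rps23 by -2.74, -2.66 and -2.61. Rpl39, Rpl23, Rpl15, Rpl7, Rps12, Rps3a1, Rpl26, Rps4x and Rps27a were also more than 1 log2 unit below the median. In 18 of the 82 genes the highest nuclear library was below the lowest total RNA library. How often this held over all tested genes was not counted, so the number has no background here.

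Among the genes higher in nuclear RNA was Rps15, a small subunit protein, which ran from 26.5 to 254 CPM with a median of 177 CPM in total RNA and from 145 to 382 CPM with a median of 293 CPM in nuclear RNA. The ranges overlapped, with 23 of 36 nuclear libraries above the highest of total RNA, and the change was 0.54 (SE 0.11, adjusted p 3.44e-06, edgeR). Rpl14, Rpl6, Rpsa and Rps9 changed by 0.43, 0.36, 0.33 and 0.33, and Rpl18, Rps19, Rpl19 and Rpl8 by 0.29, 0.21, 0.20 and 0.17; with pseudogene rows, described below, added, Rps19 was at -0.089 and Rpl19 at -0.32. In replicates 4 to 6 alone only 4 of the 82 genes were higher, while 64 were lower. Over all 11792 genes tested there 4560 were higher and 4490 lower. Rpl7l1, which was higher in polysomal RNA, was at -0.01 (SE 0.06, adjusted p 0.91), and Rps27l was lower, at -0.9994 (SE 0.08). Rplp0 and Rplp2 changed by -0.40 and -0.69 and Rplp1 was at -0.06 (adjusted p 0.56). Of 33 small subunit genes 26 were lower and 4 higher, with a median of -0.87, and of 49 large subunit genes 39 were lower and 6 higher, with a median of -1.18. The genes nearest the median of all 82 were Rpl9, Rps16 and Rpl29.

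The order of genes was not the same in the nucleus and on polysomes. Rps19 had -3.56 in polysomal and 0.21 in nuclear RNA, and Rpl28 had -3.50 and -0.09, the latter with an adjusted p of 0.56. Rpl39 had -0.74 in polysomal and -2.56 in nuclear RNA, and Rpl15 had 0.08 and -2.37. These values are those of each gene's own row. With pseudogene rows, described below, added, Rpl15 was lower in polysomal RNA and Rps19 had a small negative change in nuclear RNA. Both comparisons use the same wild-type total libraries, so they are given side by side without a test. Of the 24 other TOP mRNAs, 15 were lower and 6 higher in nuclear RNA, with a median of -0.85, and of 76 mitochondrial ribosomal protein genes 56 were lower and 15 higher, with a median of -0.79.

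The Bmal1-/- libraries were set against wild-type total RNA to ask how these mRNAs stand where the clock activator is lost. Of the 82 genes, 66 (80.5%) were higher and 5 (6.1%) were lower, against 21.7% and 22.4% of all 12082 tested genes. The median was 0.33 over the 82 genes, 0.34 over the small and 0.32 over the large subunit, against 0.00 over all genes, and single genes ran from -1.31 to 1.13. Of the 66 higher genes, 61 had the higher mean at all 6 times. At single times 18, 10, 31, 4, 31 and 5 genes passed as higher from ZT2 to ZT22, where 3.12% to 8.23% of all genes did. Rps16 and Rpl10 stood at the median, and Rplp0, Rplp2 and Rpsa changed by 0.32, 0.25 and 0.21. Rplp1 was at -0.05 (adjusted p 0.74). Marker lists of other cells moved with the genotype: 9 of 10 Kupffer cell, 3 of 3 lymphocyte and 4 of 5 erythroid markers tested were lower and both tested cholangiocyte markers, Sox9 and Spp1, were higher. Of 9 stellate cell markers tested 3 were higher and 3 lower, and their summed level ran from 269 to 447 CPM in the wild type and from 366 to 587 CPM in Bmal1-/-, with medians of 372 and 447 CPM. Of 10 sinusoidal endothelial markers 2 were higher and 4 lower. The summed Kupffer markers ran from 213 to 1173 CPM in the wild type and from 154 to 630 CPM in Bmal1-/-, and the summed cholangiocyte markers from 16.3 to 67.1 CPM and from 46.1 to 136 CPM; the summed lymphocyte markers had medians of 24.2 and 15 CPM and the erythroid ones 2586 and 1464 CPM. None of the listed markers was at 0 in a whole series. Their part in the result was not tested, and in RNA of whole tissue fewer cells of a type and less RNA per cell cannot be told apart.

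Rpl35, a large subunit protein at the exit of the peptide tunnel, had the highest change. Its lowest, median and highest levels were 10.2, 36.5 and 59.5 CPM in the wild type and 36.6, 87.1 and 135 CPM in Bmal1-/-. Of the 36 Bmal1-/- libraries, 29 were above the wild-type range, and the log2 change was 1.13 (SE 0.13, adjusted p 3.37e-11, edgeR). It was 1.63 in replicates 1 to 3 and 0.63 in replicates 4 to 6. Rpl22l1, the paralog of Rpl22, had medians of 42.7 and 86.9 CPM, and 19 of 36 Bmal1-/- libraries were above the wild-type range (0.88, SE 0.08, adjusted p 6.69e-15, edgeR). Rpl22 changed by 0.32 (SE 0.04). Rpl17, Rps12, Rpl6 and Rpl24 changed by 0.72, 0.69, 0.64 and 0.57. Rps14 was the only tested member with all 36 Bmal1-/- libraries above the wild-type range, with a change of 0.54 (SE 0.07). Other genes were not counted for this. The paralogs Rps27l and Rpl7l1 were at 0.00 and -0.04, with adjusted p of 0.96 and 0.60, while Rps27 and Rpl7 changed by 0.48 and 0.29. Of the 24 other TOP mRNAs 18 were higher and 2 lower, with a median of 0.31, and Eef1a1, Eef2, Pabpc1 and Eef1b2 changed by 0.31, 0.42, 0.33 and 0.36. Of 76 mitochondrial ribosomal protein genes 10 were higher and 14 lower, with a median of -0.02.

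The 5 genes lower in Bmal1-/- libraries were Rps13, Rps4l, Rpl34, Rps2 and Rps15a, with log2 changes of -1.31 (SE 0.09), -1.16 (SE 0.11), -1.0002 (SE 0.14), -0.68 (SE 0.22) and -0.19 (SE 0.06) in edgeR. Rps13, a small subunit protein, had 136, 218 and 306 CPM as lowest, median and highest library in the wild type and 57.1, 83.3 and 208 CPM in Bmal1-/-, and 31 of 36 Bmal1-/- libraries were below the wild-type range. Rpl34 had 180.3, 234 and 392 CPM in the wild type and 53.7, 84.4 and 281 CPM in Bmal1-/-, where 25 of 36 libraries were below the wild-type range and the others overlapped it. Rps2 ran from 23.7 to 241 CPM and from 14.4 to 258 CPM, with 1 of 36 Bmal1-/- libraries below the wild-type range, or 12 without replicate 4 at ZT2 of the wild type, and its change was -0.31 (adjusted p 0.41) in replicates 1 to 3 and -1.19 (adjusted p 0.0094) in replicates 4 to 6 (edgeR). Rps4l had medians of 18.7 and 8.93 CPM. By the RefSeq table (GRCm38.p6), Rps13, at chr7:116331507-116334190, starts 3.02 Mb past the end of Arntl on chromosome 7, and Rps15a lies 4.79 Mb past it. The only other member within 10 Mb of Arntl was Rpl27a, 3.66 Mb on its other side, whose change was 0.40 (SE 0.06).

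Counts of 60 of the 86 genes stood beside counts under 275 rows named as their pseudogenes, which are near copies of the same mRNA, so that reads may be split between a gene and its copies. These rows held 23.0% of the summed counts of genes and copies in wild-type total RNA, 21.5% in nuclear, 13.9% in polysomal and 24.9% in Bmal1-/- RNA. For Rps6, the substrate of S6 kinase, nearly all counts lay there: its own row had a median of 4.26 CPM in wild-type total RNA and its 4 pseudogene rows together 474 CPM. Its change in polysomal RNA was -1.27 by its own row and -3.20 with the pseudogene rows added, and in nuclear RNA -0.87 and -2.65. Rpl15, Rps23 and Rpl10a had 95.3%, 94.6% and 91.6% of their counts in pseudogene rows in wild-type total RNA. With these added, the polysomal change of Rpl15 turned from 0.08 to -1.79, and that of Rps23 went from -1.14 to -2.05. Over all 82 genes the medians with pseudogene rows added were -1.66 in polysomal, -0.97 in nuclear and 0.36 in Bmal1-/- RNA.

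**Figure D3:**
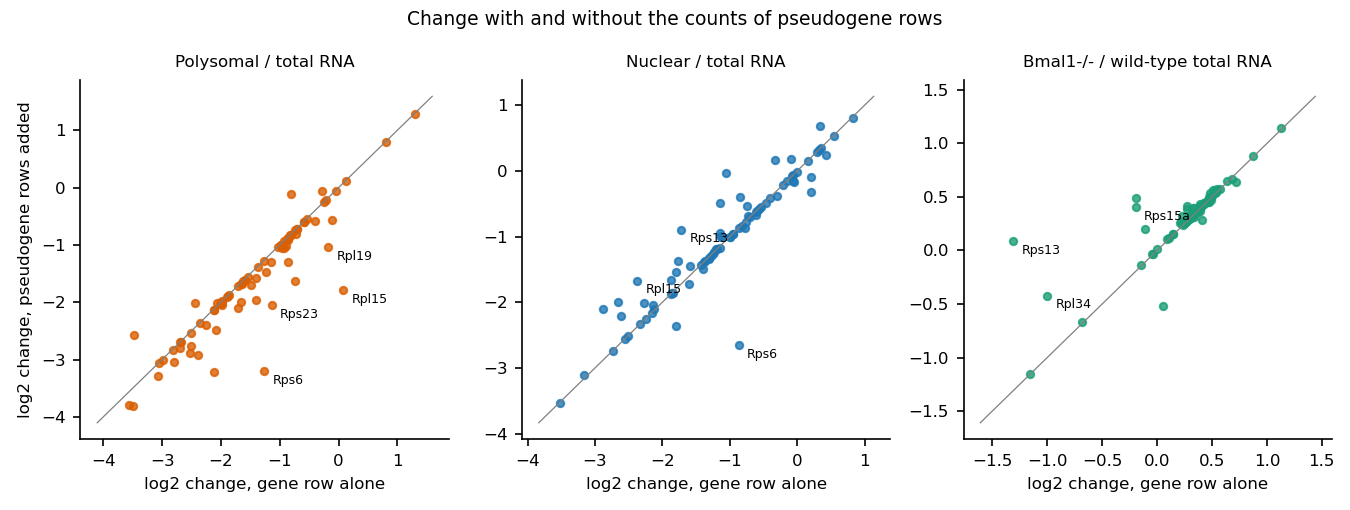
log2 change of each tested gene by its own row (horizontal axis) and with the counts of its pseudogene rows added (vertical axis) in the 3 comparisons; grey lines mark equal values. Most genes lie near the line, Rps6 and Rpl15 lie below it in polysomal RNA, and Rps13, Rpl34 and Rps15a lie above it in Bmal1-/- RNA.

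In the Bmal1-/- comparison 3 of the 5 lower genes gained counts in their summed pseudogene rows. A gain was common in such rows. Of all 110 tested pseudogene rows of members 82 were higher and 5 lower, with a median log2 change of 0.41. Single rows of the 3 genes also went down, with Rps13-ps2 at -3.83, Rps15a-ps5 at -1.18 and Rps15a-ps4 at -0.51. Their other tested rows rose. The 7 pseudogene rows of Rps13 together had 96.2, 139 and 247 CPM as lowest, median and highest library in the wild type and 204, 315 and 567 CPM in Bmal1-/-, and 27 of 36 Bmal1-/- libraries were above the wild-type range. With them added, the log2 change of Rps13 was 0.087 (adjusted p 0.20, edgeR) in place of -1.31. For Rpl34 the medians of the 2 pseudogene rows were 51.1 and 102 CPM, 33 of 36 Bmal1-/- libraries were above the wild-type range, and the change with the rows added was -0.42 in place of -1.0002. For Rps15a the medians were 35.4 and 177 CPM, 31 of 36 libraries were above the wild-type range, and the change turned from -0.19 to 0.41. Within the wild type the Rps15a pseudogene rows also differed between sets, from 26.4 to 36.9 CPM in replicates 1 to 3 and from 16.4 to 111 CPM in replicates 4 to 6. No library of the second set lay between 41.05 and 76.29 CPM, so some lay near the first set and others well above it. Bmal1-/- libraries were also split for the own row of Rpl34, with none between 96.57 and 145.5 CPM. The wild-type sets differed for Rps13 too: the own row had a median of 222 CPM in the first set and 176 CPM in the second, against 114 and 194 CPM in its pseudogene rows. In Bmal1-/- the own row had 81.2 and 85.6 CPM and the pseudogene rows 256 and 363 CPM.

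**Figure D4:**
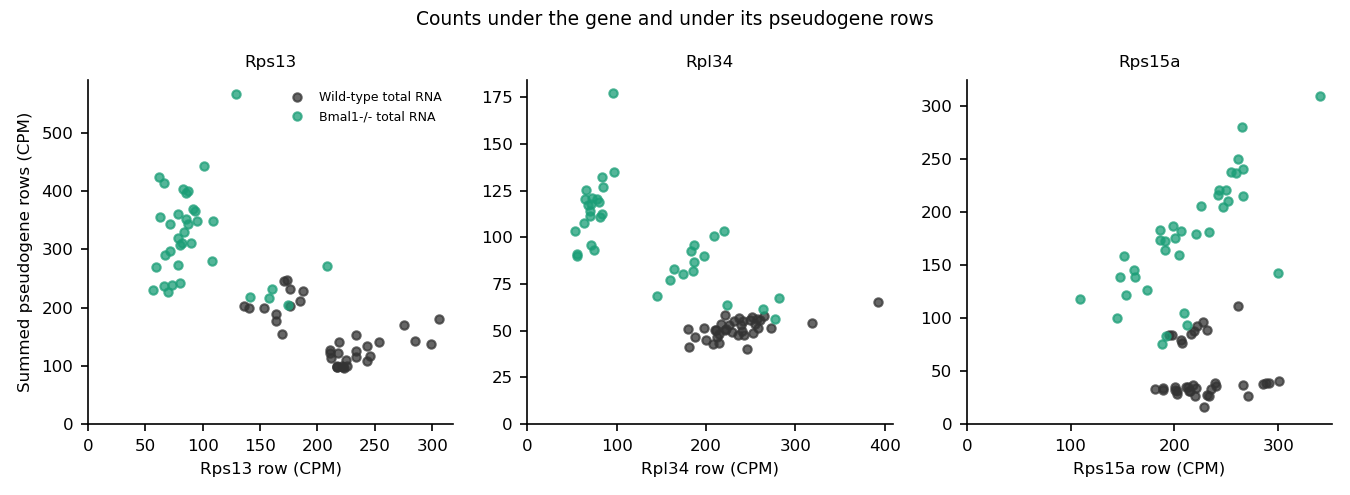
CPM under Rps13, Rpl34 and Rps15a (horizontal axes) and summed over the pseudogene rows of each (vertical axes), 1 point per library of wild-type and Bmal1-/- total RNA. The Bmal1-/- libraries lie higher on the vertical axis in all 3 panels, with medians of 315, 102 and 177 CPM against 139, 51.1 and 35.4 CPM.

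A cosine and a sine with a period of 24 h were fitted to the 36 libraries of a series to test for rhythm. In wild-type total RNA 1 of 82 genes passed, where 18.9% of all 11964 tested genes did, and 2 members (2.44%) had an unadjusted p under 0.05, against 31.6% of all genes. The gene was the paralog Rpl7l1, with a peak-to-trough ratio of 1.40 and a peak at ZT19.1 (adjusted p 0.00144, edgeR). Its means were 39.5, 35.9, 33.9, 45.9, 44.6 and 43.8 CPM from ZT2 to ZT22, lowest at ZT6 and ZT10 and highest in the dark. At ZT2 replicate 4, the library that stood apart, had 26.1 CPM, and the others ran from 38.2 to 47.7 CPM. The median ratio of the 82 genes was 1.15, against 1.25 over all genes. In nuclear RNA 0 of 82 genes passed in edgeR, against 5.99% of all genes, with 2 members at an unadjusted p under 0.05, Rpl30 and Rps4l, against 17.4% of all genes. In Bmal1-/- total RNA 0 passed, against 0.00825% of all genes, with 1 member at an unadjusted p under 0.05, Rps13, against 4.05% of all genes.

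In polysomal RNA 9 of 82 genes (11%) passed, where 7.9% of all 10691 tested genes did. The 9 were Rplp2, Rps14, Rps21, Rps16, Rpl35, Rpl39, Rps26, Rps9 and Rplp1, with peaks between ZT15.7 and ZT17.7. At an unadjusted p under 0.05 there were 31 of 82 genes (37.8%), against 21.8% of all genes, and the median ratio was 1.55, against 1.36 over all genes. The fitted peak lay between ZT12 and ZT20 in 78 of 82 genes (95.1%) in polysomal RNA, against 35.7% of all genes. It lay there in 48 genes (58.5%) in wild-type total, 41 (50%) in nuclear and 45 (54.9%) in Bmal1-/- RNA, against 32.5%, 34.2% and 35.1% of all genes. Most of the 82 genes did not pass the rhythm test in any series. Peaks of genes in the same libraries are not independent, and these shares have no test. The count of 9 moved with the libraries used: it was 2 (2.44%) in replicates 1 to 3, 21 (25.6%) in replicates 4 to 6 and 14 (17.1%) without the polysomal replicate 1, where 1.12%, 5.54% and 5.8% of all genes passed. With all 4 series in 1 fit it was 42 (51.2%), against 22.6% of all genes, and with time as a factor 2 (2.44%), against 3.24%.

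Rplp2, the stalk protein, had polysomal means of 131, 132, 152, 227, 224 and 193 CPM from ZT2 to ZT22. At ZT18 the 6 libraries ran from 186 to 270.0 CPM, above all 6 at ZT2, which ran from 95.7 to 153 CPM, while at ZT14 they spread from 80.7 to 337 CPM. The ratio was 2.21 with a peak at ZT17.1 (adjusted p 0.000266, edgeR). Rps21 had means of 265, 240.2, 314, 435, 374 and 287 CPM and a ratio of 1.98 (adjusted p 0.00311). Rpl35 had the largest ratio of the 9, 3.70, at low levels with means from 2.41 CPM at ZT6 to 8.04 CPM at ZT14 (adjusted p 0.00767). Rps14 and Rps16 had ratios of 2.08 and 2.46. Summed over all members, the polysomal share was 0.697% and 0.671% at ZT2 and ZT6 and 0.913% and 0.856% at ZT14 and ZT18, and the SD of 6 libraries at a time was between 0.150 and 0.361 percentage points. Those of wild-type total RNA ran from 1.51% at ZT10 to 1.66% at ZT14.

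**Figure D5:**
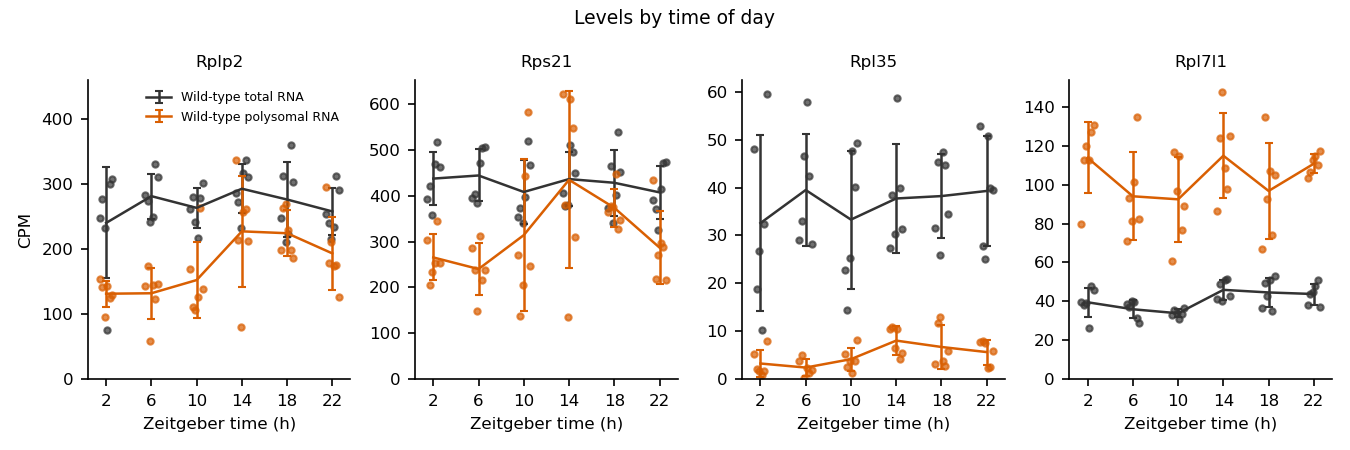
Levels (CPM) of Rplp2, Rps21, Rpl35 and Rpl7l1 by zeitgeber time in hours in wild-type total and polysomal RNA; points are libraries and lines with bars are the mean ± SD of 6. Polysomal Rplp2, Rps21 and Rpl35 have their highest mean at ZT14, with wide spread there, and Rpl7l1 lies higher in polysomal than in total RNA at each time.

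Whether a rhythm differed from that of wild-type total RNA was tested as an interaction. For polysomal RNA 0 of 82 genes passed in edgeR, as did 0% of all 11556 genes, and 16 members (19.5%) had an unadjusted p under 0.05, against 5.89% of all genes. The lowest were Rps21, Rpl39 and Rplp2, with adjusted p of 0.17, 0.17 and 0.23. Of the 82 genes, none was thus shown to cycle on polysomes in another way than in total RNA, under this fit or any alternative run; over all genes, 54 passed with a filter of 1 count and 7 without the polysomal replicate 1. For nuclear RNA 0 members and 0% of all genes passed, with 0 members at an unadjusted p under 0.05. For Bmal1-/- RNA 0 members passed, against 5.11% of all genes, and 1 member had an unadjusted p under 0.05, Rpl7l1 (adjusted p 0.087).

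Use of polyadenylation sites could be followed in 58 genes with 188 sites of the authors' filtered list, since a strand was known for 63 genes. For each site, usage is the percentage that it holds of all site counts of the gene. In nuclear RNA 102 of 127 tested member sites differed, where 78.8% of all tested sites did, and in polysomal RNA 88 of 129, where 70.3% did, so that both shares were near the background. In Bmal1-/- RNA 17 of 131 sites (13%) in 11 genes differed, against 8.55% of all sites. When the count limit per gene was raised to 200, 20 of 123 member sites (16.3%) differed there, against 15.7% of all sites. Among these better counted genes the Bmal1-/- share was thus near the background. Under the other alternatives it was above it. The share was 9.92% against 5.6% in replicates 1 to 3 and 13.4% against 11.9% in replicates 4 to 6. It was 21.4% against 14.3% with the replicate number as a block, and 19.1% against 9.07% without replicate 4 at ZT2 of wild-type total RNA. All positions below are those of the authors' lists (mm10).

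The largest shift in Bmal1-/- RNA was again in Rps13. The site at chr7:116332417-116332482, inside the gene, held 28.1% ± 8.75 (SD, n = 36) of its site counts in the wild type and 89.6% ± 21.0 in Bmal1-/-. Its lowest, median and highest shares were 11.4%, 25.1% and 48.1% in the wild type and 32.4%, 97.9% and 99.7% in Bmal1-/-, so that the ranges overlapped only between 32.4% and 48.1% (log2 change 1.68, SE 0.10, adjusted p 7.04e-21, edgeR). The rest of the counts lay at the annotated gene end. Shares are parts of a total that itself fell, from a median of 218 CPM under Rps13 in the wild type to 83 CPM in Bmal1-/-. A higher share of the inner site is thus not a higher level there by itself. Rpl34 counts at its annotated end, chr3:130726827-130726949, went from 93.9% to 81.3%, and those of an inner site, chr3:130728789-130728851, from 3.43% to 13.1%. In Rps2 the site at chr17:24721625-24721719 went from 85.2% to 66.9%, and in Rpl35 the site at chr2:39004821-39004854 from 42.0% to 57.1%. Thus 3 of the genes that were lower in Bmal1-/- libraries, and the one with the highest rise, also changed in the sites counted; exon annotation was not used here.

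In nuclear RNA the site of Rps27 at chr3:90212689-90212755 held 77.6%, against 37.8% in total RNA. In Rpl27a an inner site at chr7:109521351-109521413 held 38.1%, against 1.73%, with 14.3% to 82.3% over nuclear and 0.366% to 5.92% over total RNA libraries. In Rpl6 a site at chr5:121205109-121205145 held 25.7%, against 1.83%. In polysomal RNA the site of Rpl19 at chr11:98030474-98030497 held 55.2%, against 15.5%, and that of Rpl22 at chr4:152333877-152334086 45.7%, against 12.7%. The site of Rpl14 at chr9:120574413-120574448 held 73.0% in polysomal and 45.3% in total RNA. In wild-type total RNA, replicate 4 at ZT2 had 81.2% at the Rpl19 site and 95.2% at the Rps27 site, the highest shares of its series. Without that library 105 of 129 member sites (81.4%) differed in nuclear, 91 of 129 (70.5%) in polysomal and 25 of 131 (19.1%) in Bmal1-/- RNA, against 79.8%, 71.8% and 9.07% of all sites.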

How the data were processed

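The authors deposited raw counts per gene symbol and per polyadenylation site, 1 column per library, and the submitters' processing notes name STAR 2.4.2a, edgeR, HOMER and the builds mm10 and GRCm38.p5, with no role given. The deposited tables of normalized values were not used. Members, lists and tests were chosen with earlier results of these data known. Some genes that the rule below names are not reported here. Named genes were taken by a written rule: the 6 lowest and 6 highest changes per comparison, the 3 nearest the median, those over 1 log2 unit from it, the 6 lowest p per rhythm test, the paralogs, and Rplp0, Rplp1, Rplp2, Rpsa, Rps6 and Rps13. Values are CPM of gene counts. Tests used edgeR 4.0.16 in R 4.3.3 (quasi-likelihood F tests, robust, TMM) on every gene whose mean count was at least 10, with Benjamini-Hochberg adjustment at 0.05. Series were compared over the mean of 6 time points, with 12 groups in a fit, and SE is the change over the root of F. Rhythm tests have 2 degrees of freedom. Site usage was tested on site counts with the gene's total plus 0.5 as offset, for sites with at least 5% of a gene with a mean of at least 50 counts. Scripts were tested on simulated data. Of 360 pairs of libraries within a group 0 were identical. All columns were matched to samples by title. Alternatives were DESeq2 1.42.0, other scalings, filters, library sets, fits with a replicate block and added pseudogene rows. The pseudogene rows of a gene are those named with its symbol and -ps.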

Additional observations from a re-analysis of the deposited data

Results flagged for a closer look

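Libraries that stood far from the others of their group of 6 were looked for in the share of counts, in the subunit ratio and in the 9 genes that passed the rhythm test in polysomal RNA; by chance about 1 in 20 groups of 6 would show one, and 102 groups were checked. The polysomal library of replicate 1 at ZT22, which is also the one with Xist above 100 CPM in its series, had a share of 1.53% (others 0.606% to 0.760%), and there Rps14 had 1183 CPM (others 313 to 570.2), Rps21 433 CPM (others 216 to 297), Rps26 587 CPM (others 216 to 296) and Rps9 251 CPM (others 209.8 to 218). In the same replicate Rplp1 had 990.4 CPM at ZT18 (others 456 to 520.1), and the log2 ratio of small to large subunit counts was -0.18 at ZT10 (others 0.23 to 0.40). Replicate 5 of the polysomal series at ZT10 had 847 CPM of Rps14 (others 296 to 461), 374 CPM of Rpl39 (others 63.1 to 179) and 475 CPM of Rps26 (others 202 to 257). The subunit ratio was -0.38 in replicate 3 of Bmal1-/- total RNA at ZT14 (others -0.33 to -0.31) and -0.23 in replicate 4 of nuclear RNA at ZT10 (others -0.08 to 0.01).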

How the results depend on the processing

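The counts of genes higher or lower in the 3 comparisons stayed within 1.5 times under all alternatives, except that 4 in place of 10 genes were higher in nuclear RNA in replicates 4 to 6. Over all genes 4560 of 11792 were higher there. The count of members rhythmic in polysomal RNA, 9 in the main analysis, was 28 with the replicate number as a block, 2 in replicates 1 to 3, 21 in replicates 4 to 6, 14 without the polysomal replicate 1, 42 with all 4 series in 1 fit and 2 with time as a factor, where 14.1%, 1.12%, 5.54%, 5.8%, 22.6% and 3.24% of all genes passed, against 7.9%; the cause was not tested. That of wild-type total RNA, 1, was 4 with the replicate block and 0 in replicates 1 to 3 and in replicates 4 to 6, which hold fewer libraries. Over all genes 3039 of 11964, 1342 of 12185 and 622 of 11670 passed in these 3 fits. Member sites differing in Bmal1-/- RNA, 17, were 28 with the replicate block, while those of all sites rose from 8.55% to 14.3%. Same-numbered libraries did not deviate together in all pairs: the mean correlation of deviations was 0.349 for nuclear, -0.133 for polysomal and 0.0767 for Bmal1-/- against wild-type total RNA. It was above 0.1 in 34 of 36 nuclear pairs, against a mean of -0.0689 for different numbers, and in 1 and 18 of 36 pairs of the other series. Since no series had every pair above 0.1, the numbers were not taken as pairs in the main fits. For nuclear RNA, where most pairs were above it, a fit with pairs of number and time was also run. It gave 64 members lower and 10 higher, in place of 65 and 10. Over all 11864 genes 5186 were lower and 4971 higher in that fit. Adding pseudogene rows turned the direction of Rpl15 in polysomal RNA (-1.79), of Rpl19 (-0.32) and Rps19 (-0.089) in nuclear RNA, and of Rpl15 (0.49), Rpl3 (0.20), Rps13 (0.087) and Rps15a (0.41) in Bmal1-/- RNA, and Rps3 in polysomal RNA was at 0.15 in replicates 1 to 3. Of the other values of named genes under alternatives, 1307 kept their side of the threshold, 32 lost the call and 25 gained it. A turn of direction was counted only where the main or the alternative value passed. With a filter of 1 count the median polysomal change of all genes moved to -0.18. Counts without wild-type total RNA replicate 4 at ZT2 and without the libraries with Xist above 100 CPM were chosen after seeing the data. Low counts limit Rps6 and Rpl35 in nuclear and polysomal RNA.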

Other observations

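Genes that build ribosomes were read as further values, to be set beside the shares of all genes, 21.7% higher and 22.4% lower in Bmal1-/- and 38.4% higher and 37.6% lower in polysomal RNA. Of 30 ribosome biogenesis factors, which process ribosomal RNA and assemble the subunits, 10 were higher and 0 lower in Bmal1-/- total RNA, with a median log2 change of 0.12; in edgeR, nucleolin (Ncl) changed by 0.54 and Utp3 by 0.27. In polysomal RNA 17 of the 30 were lower and 9 higher, with Ncl at -1.73 and Nop10 at 1.25. Of 12 RNA polymerase I factors, 6 were higher and 2 lower in Bmal1-/- RNA, with Polr1c at 0.54 and Polr1d at -0.36. Of 21 regulators of TOP mRNAs, 5 were higher and 3 lower in Bmal1-/- RNA, with Larp1 at 0.25, so that these shares lay near or below those of all genes. In polysomal RNA 11 of these were lower and 5 higher, with Larp1 at -1.42 and Eif4g1 at -1.37. The row Rps3a3, left out of the members by the naming rule and singled out after its values were seen, had a median of 2.66 CPM in wild-type total and 154 CPM in Bmal1-/- RNA (1.18 to 573 CPM), while the member Rps3a1 had medians of 57.1 and 54.8 CPM.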
